A study of Mus musculus with 6 samples.

Results

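Aquaporins were examined in colon of 3 control and 3 Islr knockout mice, through 8 genes chosen by name: Aqp1, Aqp3, Aqp4, Aqp5, Aqp7, Aqp8, Aqp9 and Aqp11. Every array probe whose RefSeq accession belongs to one of them was taken, which gave 14 of the 56605 probes and 8 of the 23462 named genes on the array. All mice were male, and the genotype was the only labelled difference between the groups. The sample source states that each animal drank 3.5% dextran sulfate sodium, which injures the colonic epithelium, for 5 days and then recovered for 1 day, controls included, although the treatment field of the same labels gives no treatment. Age, strain background and the design of the Islr allele are not given in the sources used here. The comparison asked how loss of Islr, a secreted leucine-rich repeat protein made by stromal cells, bears on colonic expression at that time.

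Aquaporins are membrane channels that let water pass down an osmotic gradient. The classical water channels among these genes are Aqp1, Aqp4, Aqp5 and Aqp8, the aquaglyceroporins Aqp3, Aqp7 and Aqp9 also carry glycerol, and Aqp11 is a distant relative that resides inside the cell. In the colon, water is taken up behind absorbed salt, and aquaporins of the surface epithelium are among the candidate routes.

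A single-colour array was hybridised for each animal, and each spot's background-subtracted intensity was placed on a log2 scale on which 0 is the 75th percentile of that array. Between 69.4% and 75.4% of the spots of an array were well above background, the scanner software's mark for a measurable spot. Islr itself was 2.44 lower in the knockouts (SE 0.21, limma adjusted p 0.0171), with 2 controls and 3 knockouts after a control spot marked as an outlier was left out. Its signal was still well above background on all 3 knockout arrays, at -1.40, -0.93 and -1.31. The series' design text mentions a flow separation without naming a cell population. Epithelial, smooth muscle, endothelial and leukocyte markers were all measured on the arrays, so several cell types contributed RNA. In such bulk samples, fewer cells of a type and less RNA per cell cannot be told apart. All control arrays lay in one row of the slide and all knockout arrays in the other, so slide row and genotype cannot be told apart. The labels do not say whether litters or cages were shared. Brightness depends on the probe, so levels are compared between animals and not between genes.

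Promoter sequence was at hand for 7 of the 8 genes, and 3 windows are shown because the data bear on them. Aqp8 and Aqp11 lie on the same chromosome and both had their lowest value in control replicate 2 and their highest in knockout replicate 1. This was not particular to them. The bright Aqp4 probes and the mean log2 signals of the whole epithelium and surface colonocyte markers had the same lowest and highest arrays. Aqp3 showed nearly the same level in both genotypes. Each window is the 250 bases before the start of the gene, 5′ to 3′ on the gene's strand, from RefSeq on build GRCm38.p6. Capitals mark TATAAA, the letters of a TATA box, or CACGTG, an E-box.
Aqp8, chr7:123462044-123462293, plus strand: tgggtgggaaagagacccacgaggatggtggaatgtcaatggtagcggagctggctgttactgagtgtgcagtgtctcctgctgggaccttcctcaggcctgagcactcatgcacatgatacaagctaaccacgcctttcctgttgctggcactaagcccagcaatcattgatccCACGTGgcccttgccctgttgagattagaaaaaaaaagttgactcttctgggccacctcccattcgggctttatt
Aqp11, chr7:97738248-97738497, minus strand: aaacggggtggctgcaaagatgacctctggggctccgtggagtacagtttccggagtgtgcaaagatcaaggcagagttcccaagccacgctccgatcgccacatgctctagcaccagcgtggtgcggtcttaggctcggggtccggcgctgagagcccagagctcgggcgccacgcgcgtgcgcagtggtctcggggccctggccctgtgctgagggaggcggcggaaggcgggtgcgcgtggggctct
Aqp3, chr4:41098184-41098433, minus strand: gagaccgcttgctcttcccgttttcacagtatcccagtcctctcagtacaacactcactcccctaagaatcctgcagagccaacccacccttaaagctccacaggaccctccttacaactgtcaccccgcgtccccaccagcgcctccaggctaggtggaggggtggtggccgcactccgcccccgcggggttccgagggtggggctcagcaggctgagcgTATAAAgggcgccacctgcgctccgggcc

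These windows differ in make-up. The Aqp8 window held CACGTG, as did that of Aqp5 among the 7 genes, and 6.02% of all 32851 windows of this length held it on either strand. TATAAA occurred only in the Aqp3 window among those genes, against 12.4% of all windows. The words share no overlap in any of these windows. CpG dinucleotides numbered 5 in the Aqp8 window, 23 in that of Aqp11 and 14 in that of Aqp3, against a median of 6 over all windows. Aqp8 and Aqp11 thus shared neither word nor CpG content in these windows.

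No aquaporin probe passed the test between genotypes, and the largest differences were those of Aqp4, higher in the knockouts at both of its bright probes. Of the 14 probes, 10 could be tested, covering 6 of the 8 genes, and 0 of the 10 were called in limma at a 5% false discovery rate, where 3.97% of all 35351 tested probes were called (1.55% higher and 2.42% lower in the knockouts). An unadjusted p under 0.05 was reached by 2 of the 10, both of Aqp4, against 26.8% of all tested probes. When arrays were weighted by their quality in limma, 5 of the 10 were called, where 26.3% of all tested probes were. Leaving out 1 array also changed the share called over all tested probes. It was 5.83% without control replicate 1, 3.58% without knockout replicate 2 and 0.126% to 0.741% without any other array. Calls given below for such fits are to be read beside these shares. The 6 tested genes, each by its brightest probe, had differences with a median of 0.96, beside 0.01 over all 16451 named genes tested, and 5 of the 6 were higher in the knockouts. Aqp1 and Aqp9, which could not be tested and were lower in the knockouts, are not in this median.

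**Figure D1:**
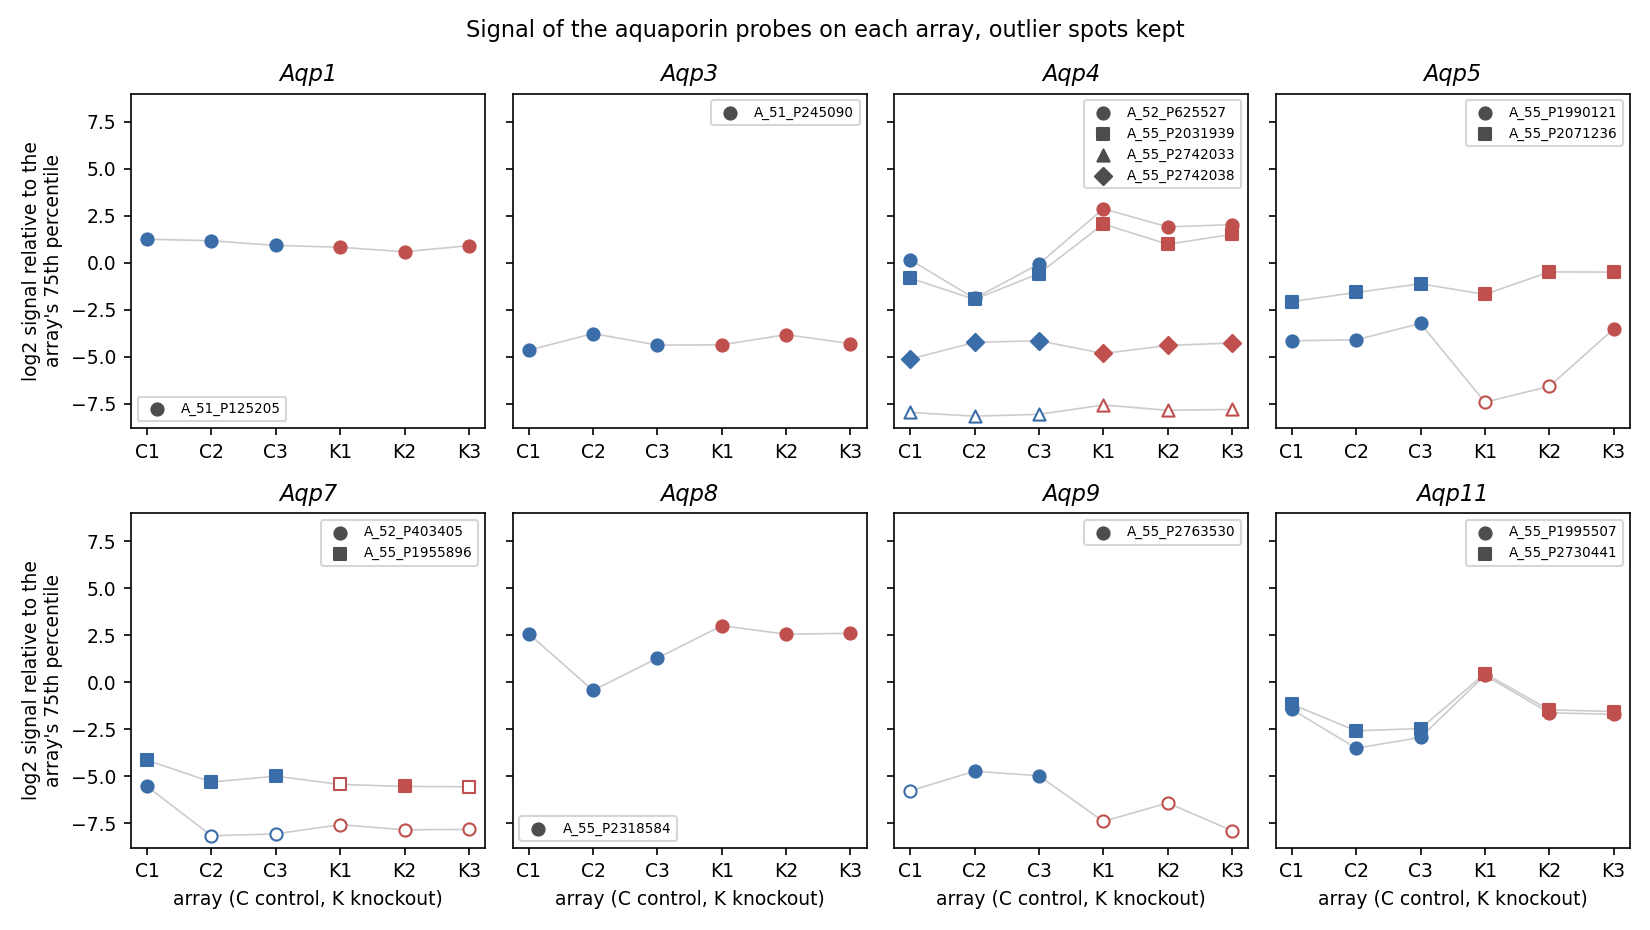
Log2 signal, with the 75th percentile of each array at 0 (y axis), for each of the 14 aquaporin probes on the 3 control (C, blue) and 3 knockout (K, red) arrays (x axis), with 1 marker shape per probe, open where the spot was not well above background and with outlier spots kept. The bright Aqp4 probes sit at 0.15 or below in controls and at 0.98 or above in knockouts, whereas Aqp8 and Aqp11 overlap because control replicate 1 is high.

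Aqp4 is the water channel of brain astrocytes, and it is also found in gastric and intestinal epithelium, enteric glia and fast skeletal muscle. Its brightest probe (A_52_P625527) read 0.15, -1.90 and -0.06 among controls and 2.87, 1.91 and 2.03 among knockouts, here and below in the order of replicates 1, 2 and 3. All 3 knockouts lay above all 3 controls, and control replicate 2 was the lowest array. The spot of knockout replicate 1 was marked as an outlier and left out of the test. Knockouts exceeded controls by 2.57 log2 units (SE 0.63, n = 3 and 2), a 5.94-fold higher signal, with a limma adjusted p of 0.0772. A second probe (A_55_P2031939) behaved alike, with -0.82, -1.94 and -0.58 in controls and 2.06, 0.98 and 1.51 in knockouts. Its difference was 2.36 (SE 0.45, n = 3 and 2 after the same array's spot was left out), a 5.14-fold higher signal, with a limma adjusted p of 0.0524.

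Whether Aqp4 was called depended on several processing choices. With outlier spots kept, both probes were called, at 2.87 (adjusted p 0.0440) and 2.63 (adjusted p 0.0310) in limma, where 4.85% of all tested probes were. With the outlier spot left out, the second probe was also called under normexp background correction (adjusted p 0.0377), median centring (0.0434) and an intensity trend (0.0378) in limma, and both probes under array weights (0.0163 and 0.0125). Over all limma alternatives that could be run, the adjusted p ranged from 0.0163 to 0.136 for the first probe and from 0.0125 to 0.0934 for the second. In those fits the difference was at least 1.92 for the first and 1.95 for the second. Neither probe could be tested without knockout replicate 2 or 3, and the fit without knockout replicate 1 repeated the main difference. Among fits without 1 array, only those without a control thus changed the difference.

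The other Aqp4 probes did not share this pattern. A_55_P2742038 was dim but well above background on all arrays, at -5.12, -4.24 and -4.15 among controls and -4.82, -4.40 and -4.27 among knockouts. The groups overlapped fully, with a difference of 0.00 (SE 0.30, limma adjusted p 0.995), whose sign turned under quantile normalization and array weights. A_55_P2742033 was well above background on none of the arrays and has no usable difference. A_55_P2031939 and A_55_P2742038 are assigned to the same Aqp4 transcript record in the array's annotation. Where the probes lie on the transcripts was not analysed here.

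Aqp8, the apical water channel of surface colonocytes, gave a bright signal on every array. In replicate order it read 2.59, -0.43 and 1.28 among controls and 3.01, 2.56 and 2.61 among knockouts. The controls ranged widely and the knockouts narrowly, and control replicate 1 lay inside the knockout range. The difference was 1.58 (SE 0.70), a 2.98-fold higher signal, the control mean being 1.15 ± 1.52 and the knockout mean 2.73 ± 0.25 (SD, n = 3 for both), and it was not called (limma adjusted p 0.207). It came to 0.79 without control replicate 2 and to 2.30 without control replicate 1, so single controls set its size. Array weighting gave 2.49 and a call (limma adjusted p 0.0272).

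Aqp11, an intracellular aquaporin of the endoplasmic reticulum, was measured by a pair of probes that gave like results. A_55_P1995507 read -1.43, -3.50 and -2.93 in controls and 0.37, -1.62 and -1.70 in knockouts. Control replicate 1 lay above knockout replicates 2 and 3, and knockout replicate 1 was the highest array. Its difference was 1.64 (SE 0.72, limma adjusted p 0.205), and that of A_55_P2730441 was 1.22 (SE 0.63, limma adjusted p 0.268). Without knockout replicate 1 these came to 0.96 and 0.56. Array weighting called the first of these probes (1.80, limma adjusted p 0.0325) and not the second.

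Aqp3, the basolateral water and glycerol channel of surface epithelium, was dim on this array but well above background in all 6 animals. It read -4.65, -3.77 and -4.38 among controls and -4.36, -3.82 and -4.30 among knockouts. The groups overlapped fully, with a difference of 0.10 (SE 0.28, limma adjusted p 0.840), which became -0.18 with array weights. Unlike Aqp4, Aqp8 and Aqp11, Aqp3 was not low in control replicate 2, where it had its highest value.

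**Figure D2:**
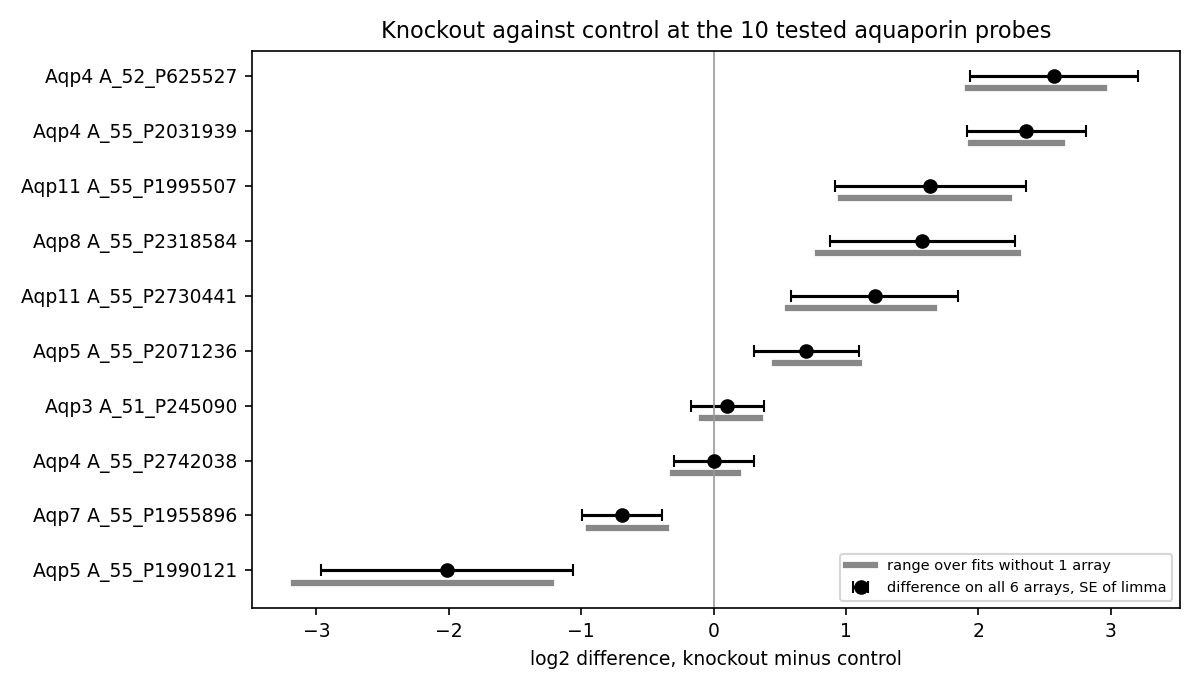
Log2 difference, knockout minus control (x axis), at each of the 10 tested aquaporin probes (y axis), as points with the standard error of limma, above a grey bar for the range over fits that leave out 1 array. For the bright Aqp4 probes only fits without a control set the width of this bar. The bright Aqp4 probes stand at 2.57 and 2.36, the Aqp5 probes lie on opposite sides of 0 at -2.01 and 0.70, and none of the probes was called.

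Aqp5, the apical channel of salivary, lacrimal and airway glands, was measured by 2 probes that disagreed in sign. The brighter one (A_55_P2071236) read -2.07, -1.58 and -1.12 in controls and -1.68, -0.49 and -0.50 in knockouts. Its groups overlapped through knockout replicate 1, with a difference of 0.70 (SE 0.40, limma adjusted p 0.305). The dimmer one (A_55_P1990121) read -4.15, -4.10 and -3.23 in controls and -7.41, -6.58 and -3.52 in knockouts. It was well above background in all 3 controls and in knockout replicate 3 alone, and that knockout lay within the control range. Its difference was -2.01 (SE 0.95, limma adjusted p 0.231), -0.82 under normexp background correction and -3.17 without knockout replicate 3, so its size is uncertain. Markers of secretory glands and pancreas were measured beside it, and 3 of the 6 (Cpa1, Pnlip and Prss1) were above background on none of the arrays. Of the 3 tested, 2 were lower and 1 higher in the knockouts (median -0.15, 0 called), the higher one being Cela1 at 1.103. The summed signal of the 6, in units of the array's 75th percentile, was 2.05 to 3.18 in controls and 4.18 to 5.90 in knockouts.

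Aqp7, the glycerol channel of adipocytes and capillaries, was dim. A_55_P1955896 read -4.14, -5.30 and -4.99 in controls and -5.43, -5.54 and -5.55 in knockouts, where it was well above background in knockout replicate 2 alone. All 3 knockouts lay below all 3 controls, with a difference of -0.69 (SE 0.30, limma adjusted p 0.199). Among the chosen genes, it was the only 1 of the 8 probes tested with 6 usable spots whose groups did not overlap, against 34.5% of all such probes. Its size was -0.36 without control replicate 1 and -0.25 under normexp. The second probe, A_52_P403405, was well above background in control replicate 1 alone. Adipocyte markers were summed at 28.3, 7.32 and 7.95 in controls and 5.27, 12.2 and 12.1 in knockouts. Control replicate 1, the highest control in Aqp7 at both probes, was also highest in fat markers. Knockout replicates 2 and 3 were above control replicates 2 and 3 in fat markers but below them at A_55_P1955896. Of 5 adipocyte markers tested 4 were higher and 1 lower in the knockouts, with 0 called. Their median was 0.28, and -0.57 to 2.19 on leaving out 1 array. The part of adipose tissue in the Aqp7 values was not tested.

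Aqp9, which carries glycerol and urea in hepatocytes and neutrophils, was well above background in control replicates 2 and 3 and in none of the knockouts, and so was not tested. It read -5.77, -4.73 and -4.97 among controls and -7.40, -6.41 and -7.89 among knockouts. The groups did not overlap (exact permutation p = 0.1, the smallest that 3 against 3 allows), as was true of 37.3% of all probes with outlier spots kept. Since 4 of these 6 values were not above background, no fold is given. Without control replicate 1, Aqp9 met the rule for testing through the other two controls alone, and its call there (limma adjusted p 0.0438) was made against knockout values not above background.

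Most neutrophil markers were lower in the knockouts, as Aqp9 was. Of 10 listed markers 8 were tested, and 6 were called lower and 1 higher in the knockouts (Ltf, lactoferrin, which glandular epithelium also makes). Csf3r, the remaining tested marker and the brightest of those tested, was 0.17 higher and not called (limma adjusted p 0.483). It read 2.93 to 3.11 in controls and 3.14 to 3.31 in knockouts, and it is part of the sum below. Without control replicate 2, control replicate 3 or knockout replicate 3 the calls numbered 0 of 6, 1 of 6 and 1 of 7 tested. In these fits 0.219%, 0.275% and 0.126% of all tested probes were called. The medians of the list there were -1.51, -1.59 and -4.10, beside -2.83 on all arrays. The summed signal of the listed markers was 24.4 to 26.2 in controls and 17.4 to 19.5 in knockouts, and Ngp was above background on none of the arrays. Macrophage markers had 0 of 7 called, 1 higher and 6 lower, and summed to 16.8 to 23.8 and 11.2 to 15.3. The part of neutrophil and macrophage RNA in the Aqp9 values was not tested.

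Aqp1, the constitutive water channel of capillary endothelium and red cells, was well above background on all arrays, but its spot was an outlier on 3 of 6, which left 1 usable knockout value and no test. With outlier spots kept it read 1.25, 1.17 and 0.92 among controls and 0.82, 0.59 and 0.91 among knockouts. The groups did not overlap, although control replicate 3 and knockout replicate 3 nearly met, and the difference was -0.34 (exact permutation p = 0.1, the smallest possible). In limma with outlier spots kept it was not called (adjusted p 0.247). All 9 endothelial markers tested were also lower, with a median of -1.17 (-0.72 without knockout replicate 1), although 0 were called (2 without knockout replicate 2), and their summed signal was 15.2 to 17.0 in controls and 4.36 to 10.6 in knockouts. Of 4 erythroid markers tested all were lower and 2 were called (Hbb-b1 and Slc4a1; 2 without control replicate 1, 1 without knockout replicate 2 and 0 on leaving out any other array), with sums of 2.53 to 4.400 and 1.37 to 2.01, while Epb42 was above background on none of the arrays. Fibroblast markers were lower too (5 of 5, 0 called, median -0.63, or -0.42 without knockout replicate 1), with sums of 29.7 to 34.8 and 16.7 to 24.7, whereas smooth muscle markers were higher (6 of 6, 0 called, median 0.36), with sums of 44.3 to 54.5 and 60.2 to 70.8. The part of these cells in the Aqp1 values was not tested.

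**Figure D3:**
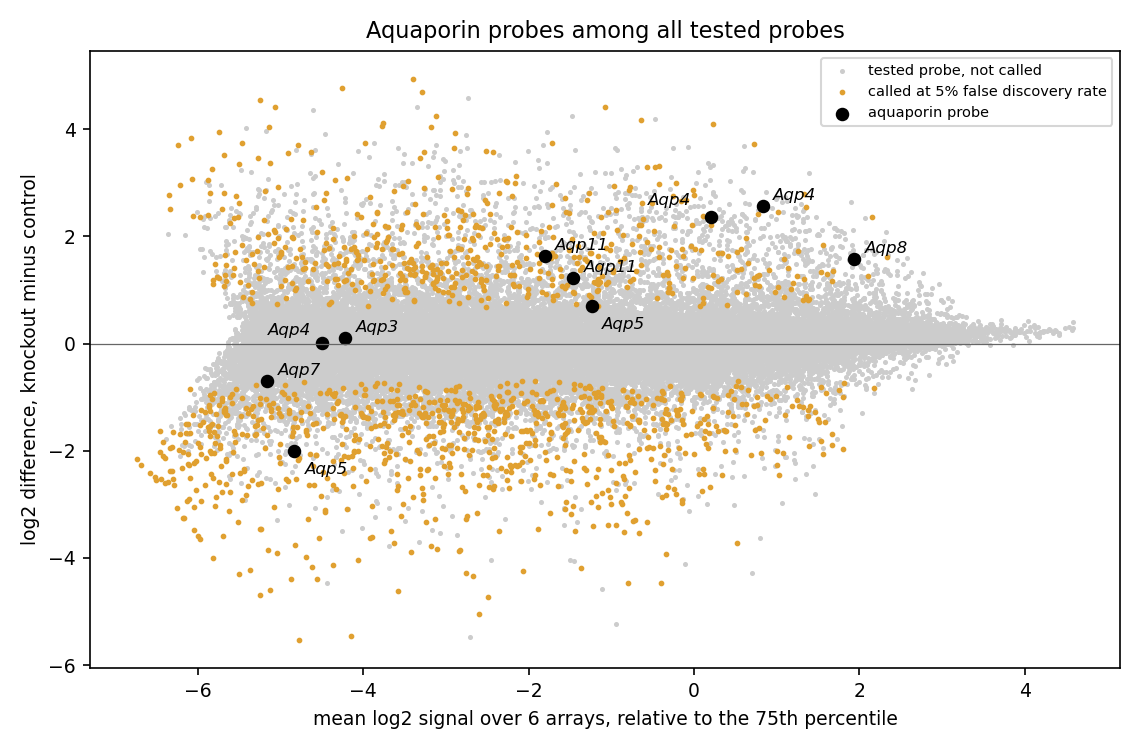
Log2 difference, knockout minus control (y axis), against the mean log2 signal over the 6 arrays (x axis) for all 35351 tested probes, in grey where not called and in orange for the 1403 called at a 5% false discovery rate, with the 10 tested aquaporin probes in black. The bright Aqp4, Aqp8 and Aqp11 probes lie in the upper part of the cloud and the dim Aqp3 and Aqp7 probes near its middle.

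Other members of the family were dim, and 2 of the 4 were tested, with 0 called. Aqp2, the vasopressin-regulated channel of the kidney, differed by 0.17 (SE 0.20, limma adjusted p 0.633) and was dim at -4.71 to -4.12. Aqp6 differed by 0.38 at its brighter probe (SE 0.16, limma p 0.0498, adjusted p 0.186). The groups did not overlap there, as was true of 34.5% of all tested probes with 6 usable spots. Its other probe was well above background on none of the arrays. Mip, the lens aquaporin, was well above background in 2 controls and 1 knockout, and Aqp12 on none of the arrays.

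The higher Aqp4, Aqp8 and Aqp11 signals went with higher epithelial markers. All 8 surface colonocyte markers tested were higher in the knockouts, with a median of 1.42 and 0 called, and all 4 whole epithelium markers tested were, with a median of 1.08 and 0 called. Without control replicate 2 these medians came to 0.54 and 0.30, and without control replicate 1 the surface colonocyte list had 2 calls. The summed signal of the whole epithelium list was 42.6, 14.02 and 33.7 among controls and 66.3, 50.6 and 51.9 among knockouts. That of the surface colonocyte list was 52.6, 16.7 and 38.7 in controls and 86.7, 65.5 and 66.6 in knockouts, and in both lists every marker with a probe was above background on at least 1 array. Control replicate 2, the lowest array in both sums, was also the lowest for the bright Aqp4 probes, Aqp8 and Aqp11. Goblet cell markers were higher in 6 of 6 (median 0.96, or 0.41 without control replicate 2, 0 called), with sums of 14.9 to 62.4 in controls and 52.5 to 72.7 in knockouts.

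An added measure, chosen after these values were seen, set each aquaporin against the mean log2 signal of the 6 whole epithelium markers of the same array, with outlier spots kept. Aqp4 stayed apart between the genotypes at its bright probes. Its brightest probe was at -2.59, -2.97 and -2.47 in controls and -0.54, -1.13 and -1.06 in knockouts, a difference of 1.77 in place of 2.87 (exact permutation p = 0.1, the smallest possible). The second Aqp4 probe differed by 1.53 in place of 2.63, again with no overlap. The dim probe A_55_P2742038 differed by -1.10, with overlap. How many of all probes stay apart on this scale was not counted, so Aqp4 cannot be ranked among them. Before the subtraction, the groups did not overlap at 37.3% of all probes.

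The groups overlapped for Aqp8 and Aqp11 on that scale, as they had before the subtraction. Aqp8 was at -0.15, -1.50 and -1.13 in controls and -0.40, -0.48 and -0.48 in knockouts, a difference of 0.47 (exact permutation p = 0.4). The Aqp11 probes differed by 0.53 and 0.11 (exact permutation p = 0.6 and 0.9). Aqp3 differed by -0.9997 and the brighter Aqp5 probe by -0.40 on this scale, each with overlap and with the sign turned. Aqp1 differed by -1.45 in place of -0.34, with no overlap on either scale. The subtracted markers were higher in the knockouts, so this scale lowers the difference of every probe by the same amount.

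**Figure D4:**
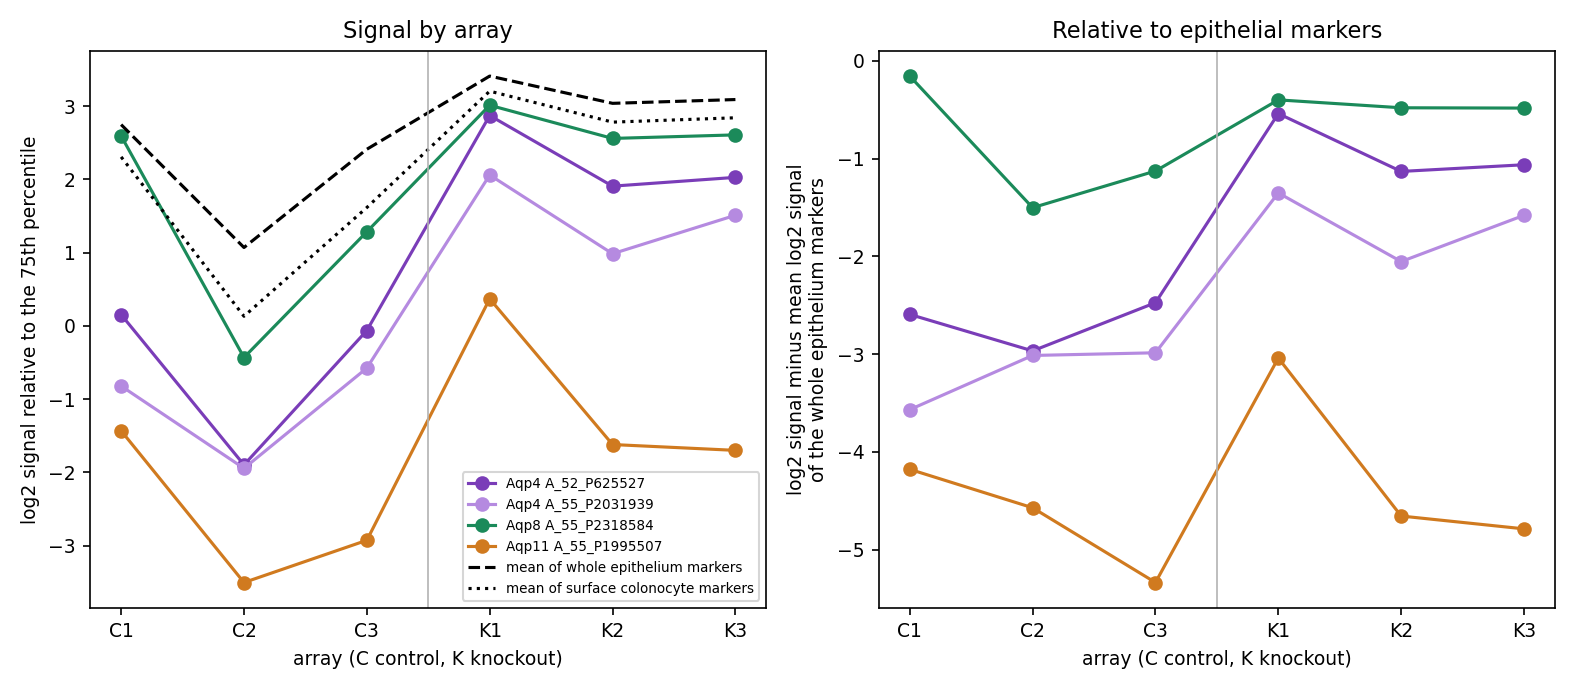
Left, log2 signal relative to the 75th percentile (y axis) of Aqp4 (2 probes), Aqp8 and Aqp11 (1 probe) and the mean of 2 epithelial marker lists on each control (C) and knockout (K) array (x axis). Right, the same probes after the mean of the whole epithelium markers is subtracted, where Aqp4 differs by 1.77 and 1.53 with no overlap and Aqp8 by 0.47 with overlap.

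Other cells that can hold Aqp4 were also read from their markers. Of 6 enteric glia markers 5 were lower in the knockouts, Sox10 by -0.79 and Gfap by -0.92 (limma adjusted p 0.0603 and 0.225). Erbb3, which epithelium also expresses, was called higher by 2.33 (limma adjusted p 0.0363), although it was well above background in 1 of 3 controls. That call held without control replicate 1 and was lost without any other single array. The glial sum was 3.85 to 3.91 in controls and 2.51 to 3.18 in knockouts. Of 12 skeletal muscle markers tested 9 were higher, with a median of 0.18, and the fast myosins Myh1 (2.07) and Myh2 were called (limma adjusted p 0.0160 and 0.0103), Myh2 against control values that were not above background on any array. Without control replicate 3 or knockout replicate 3 the calls in this list numbered 1. Their sum was 2.38 to 3.14 in controls and 2.68 to 4.97 in knockouts. Of 7 crypt base markers 4 were higher, with a median of 0.62, and Rnf43 was called. Calls in this list numbered 2 without control replicate 1, 1 without knockout replicate 2 and 0 on leaving out any other array. The crypt base sum was 4.59 to 6.61 in controls and 8.06 to 9.98 in knockouts. Squamous epithelium, which is rich in Aqp3, had 8 of 9 markers higher (median 0.47, 0 called), with sums of 8.79 to 11.4 and 11.4 to 12.5, and Dsg3 was above background on none of the arrays. Most of these squamous sums came from Trp63, which read 2.99 to 3.47 over the arrays and differed by 0.14. The part of these cells in the Aqp4 and Aqp3 values was not tested.

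Genes of colonic salt and water absorption, the transport that water follows, were higher in the knockouts in 9 of the 10 tested. Their median was 1.96, beside 0.01 over all named genes, 1.42 for surface colonocyte markers and 1.08 for whole epithelium markers. Slc26a3 is in both this list and the surface colonocyte list. Nr3c2, Scnn1g and Hsd11b2 were well above background in 2, 1 and 1 of 3 controls, so their sizes are uncertain. The part of epithelial cells in these values was not tested. In limma 2 of the 10 were called, both higher in the knockouts, where 3.97% of all tested probes were called. They were Slc4a4, a basolateral sodium bicarbonate cotransporter, at 2.68 (SE 0.48, adjusted p 0.0422), and Atp1b1, a subunit of the sodium pump, at 1.61 (SE 0.29, adjusted p 0.0468). Slc26a3, the apical chloride bicarbonate exchanger, was 3.69 higher (SE 0.98, adjusted p 0.0883), and Scnn1a, a subunit of the epithelial sodium channel, was 2.47 higher (SE 0.69, adjusted p 0.0861). Leaving out control replicate 1 gave 5 calls, leaving out knockout replicate 2 gave 1 and each other array 0, with medians of 1.49 to 2.84.

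Genes of chloride and fluid secretion were higher in 8 of 11, with a median of 0.92. Guca2a of this list is also in the surface colonocyte list, and Clca1 in the goblet cell list. The 1 call was a fall, in Adora2b, an adenosine receptor that drives secretion, by -2.56 (SE 0.49, limma adjusted p 0.0446), measured on 1 of 3 knockout arrays. Cftr, the apical chloride channel, was 3.28 higher (SE 1.14, limma adjusted p 0.130), and Kcnq1, a basolateral potassium channel, was 2.46 higher (SE 0.63, limma adjusted p 0.0721). Cftr was well above background in 2 of 3 controls, which read -2.16, -6.44 and -1.96, so its size is uncertain. Leaving out control replicate 1 gave 2 calls, knockout replicate 3 gave 1 and each other array 0, with medians of 0.41 to 1.36.

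Glycerol handling, into which aquaglyceroporins feed, showed 0 calls among 9 genes, 7 of them higher, with a median of 0.47. Gk, which phosphorylates glycerol taken up by the cell, was 1.82 higher (SE 0.54, limma adjusted p 0.105), and Lipe, a lipase that releases it, was -1.16 (SE 0.27, limma adjusted p 0.0633). Osmotic stress genes also showed 0 calls among 9, with a median of -0.13. Slc5a3, the myo-inositol transporter induced by hypertonicity, stood apart from the rest at 2.09 (SE 0.51, limma adjusted p 0.0670), while Nfat5, the transcription factor of that response, was at -0.38. Slc5a3 was well above background in 2 of 3 controls, which read -5.16, -6.50 and -5.34. Known regulators of aquaporin genes or traffic had 0 calls among 9, with a median of 0.50. Nr1h4, a bile acid receptor, was 2.01 higher (SE 0.44, limma adjusted p 0.0562), and Foxa2 was 2.30 higher (SE 0.92, limma adjusted p 0.169).

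**Figure D5:**
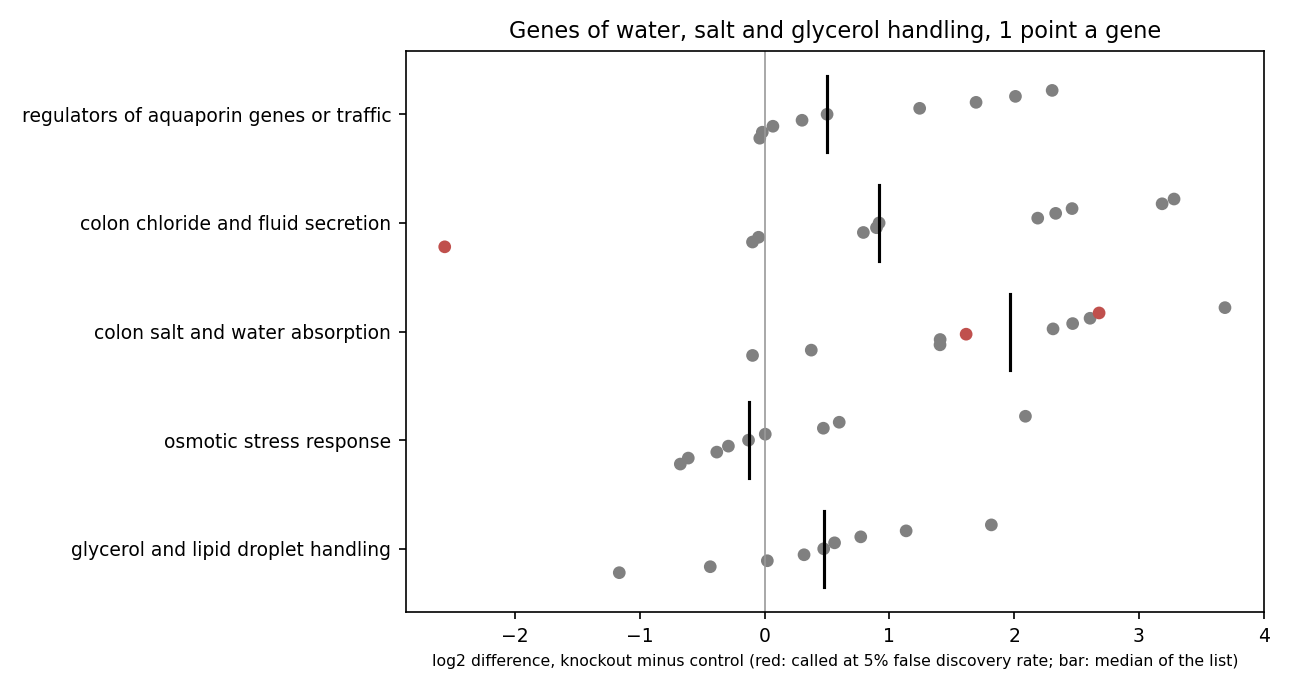
Log2 difference, knockout minus control (x axis), of each tested gene in 5 lists of water, salt and glycerol handling (y axis), with red points for genes called at a 5% false discovery rate and a bar at the list's median. The salt and water absorption list has its median at 1.96 and 2 called genes, and the osmotic stress list has its median at -0.13 and none.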

How the data were processed

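Colon RNA of 6 mice was read on single-colour Agilent arrays; the authors deposited linear intensities from Feature Extraction 11.5.1.1 (design 074809), background-subtracted and not scaled between arrays, per the file headers, whereas the submitters' processing notes name version 10.7. The labels name Cy3 and a green column, but the files hold the red channel alone. Log2 values were taken minus the array's 75th percentile. Outlier spots (3.26% to 16.0% of an array) were treated as missing. A probe was tested if well above background on all arrays of 1 group or more, with at least 2 usable values in each. Two-sided tests came from limma 3.58.1 (lmFit, eBayes; R 4.3.3), with Benjamini-Hochberg adjustment over 35351 probes; the procedure was tested on simulated data. With 3 arrays a group, their number limits the precision. The probe with the highest mean stood for a gene in list counts. RefSeq (GRCm38.p6) named 59.7% of probes; the files name build mm9, so its coordinates serve only the promoter windows. The deposited value table held the same intensities and was an alternative. Members, lists and rules were chosen with earlier results of these data known. Replicate numbers pair no animals.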

Additional observations from a re-analysis of the deposited data

How the results depend on the processing

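The number of calls depended on the processing more than the aquaporin differences did. Over all probes 1403 were called, against 2558 with normexp background, 2249 with median centring, 2185 with quantile normalization, 484 with no filter on dim probes, 9292 with array weights and 2274 from the value table; leaving out 1 array gave 2114 without control replicate 1 and 71, 90, 263, 1150 and 40 without control replicates 2 and 3 and knockout replicates 1, 2 and 3. Of the calls, 548 of 1403 were higher in the knockouts, against 1306 of 2558 with normexp, 4594 of 9292 with array weights, 1164 of 2114 without control replicate 1 and 21 of 71, 31 of 90, 65 of 263, 305 of 1150 and 4 of 40 without the other arrays in that order. Of aquaporin probes 0 were called, against 1 with normexp, median centring or an intensity trend, 2 with outlier spots kept or the value table, 5 with array weights, and 0 to 1 when 1 array was left out (Aqp9, without control replicate 1). Differences of 2 probes near 0 turned sign. Aqp3 was -0.18 with array weights, -0.091 without control replicate 1, -0.07 without knockout replicate 2 and -0.9997 relative to epithelial markers. Its range when 1 array was left out was -0.091 to 0.35. Aqp4 A_55_P2742038 was -0.014 under quantile normalization, -0.10 with array weights, -0.30, -0.04 and -0.11 without control replicate 1, knockout replicate 2 and knockout replicate 3 (highest 0.18, without control replicate 3), and -1.10 relative to epithelial markers. The brighter Aqp5 probe turned only relative to epithelial markers (-0.40). The cause was not tested. The bright Aqp4 probes had too few usable values without knockout replicate 2 or 3. Aqp7, Aqp9 and the dimmer Aqp5 probe lie near background, which limits their sizes. No paired analysis was possible because the labels give no replicate numbers.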

Other observations

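For 4 members measured on all 6 arrays, the named genes most alike in level across the arrays were listed as a description, out of 18892 named probes, with genotypes pooled. Aqp8 was most like Ern2, a stress sensor of mucus-making epithelium (Pearson r 0.998), Rep15 (0.997) and Klk1b5 (0.996). These were 2.11, 1.22 and 1.79 higher in the knockouts, and none was called. Aqp11 was most like Ube4b, Ap5s1 and Lhx6 (r 0.995 to 0.997), Aqp3 most like B130006D01Rik, Poli and Klra7 (0.976 to 0.999), and Aqp5 most like Gm34751, Nav2 and D630024D03Rik (0.985 to 0.989). With 6 arrays, correlations of this size can be found for many genes among so many probes.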
